A study of Homo sapiens with 6 samples.

Results

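The MYC, MAX and MXD network was followed in HEK293T, a cell line of human embryonic kidney origin, with GLO1 deleted (ΔGLO1). GLO1, glyoxalase I, acts early in the detoxification of methylglyoxal (MGO), a reactive by-product of glycolysis. The network's 10 members were taken by symbol from the count table: MYC, MYCN, MYCL, MAX, MXD1, MXD3, MXD4, MXI1, MNT and MGA. All 10 were found among the 63643 genes of the table, and all 10 were among the 23109 genes that passed the filter on low counts. The MGO group (3 libraries) received 60 µM MGO for 4 h, and the Control group (3 libraries) was untreated. Both groups carry the GLO1 deletion, whose extent and clonal origin the labels do not state, and no GLO1-intact cells are analysed here. MGO column names also carry a number other than the dose, with no stated meaning. The series was made to ask whether MGO changes transcripts of the integrated stress response.

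Poly(A) RNA was read to between 128270160 and 138680220 counts per library in MGO and between 117427883 and 157639431 in Control. Genes of the mitochondrial chromosome took 12.7 to 14.8% of the counts in MGO libraries and 5.32 to 5.55% in Control libraries, and the part of this shift in the results below was not tested. GLO1 itself had 11704, 11481 and 11154 counts in MGO and 5357, 6860 and 6590 in Control, and since the deleted part is not given these counts check no label. All 10 genes listed as markers of HEK293T cells averaged at least 1 CPM (the count scaled to a common library size) over the 6 libraries, although NEFM averaged 0.555 CPM in MGO and 1.457 CPM in Control. Their summed level was 2152 to 2388 CPM in MGO and 1231 to 1266 CPM in Control, carried by KRT8, VIM and KRT18. Of the 10, 4 rose (these 3 and ENO2) and 6 fell (median −0.59 on the log2 scale). Markers of blood cells summed to at most 0.809 CPM, with HBB at 0, and those of hepatocytes to at most 6.01 CPM in any library. That highest sum came from MGO replicate 1, which stood apart with 560 counts of ALB, against 5 to 19 in the other libraries, and also had the most counts of LYZ (74), APOA1 (61) and SERPINA1 (35). The part of this in the results was not tested. Without MGO replicate 1, 6 members rose and 3 fell, since MXD4 then passed the test. Those of fibroblasts summed to 5.72 to 6.16 CPM in MGO and 16.3 to 17.6 CPM in Control, of which COL1A1 gave a mean of 4.304 CPM in MGO and 13.95 CPM in Control. In bulk RNA, less transcript per cell and fewer cells holding the transcript cannot be told apart.

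MYC, MYCN and MYCL encode transcription factors that bind DNA only as dimers with MAX. MYC:MAX dimers bind the E-box sequence CACGTG and promote growth, ribosome production and nucleotide and polyamine synthesis. The MXD proteins, MXI1, MNT and MGA compete for MAX and recruit repressor complexes to the same sites, so the balance among MAX partners is the quantity the network is known for. MYC mRNA is short-lived and its transcription responds quickly to growth factor and stress signalling.

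The E-box was searched in the 250 bases before each gene's start, on RefSeq promoters of GRCh38.p14. CACGTG is its own reverse complement, so a match on either strand is the same match. Among genes with a promoter entry, 7.73% of 27305 held the motif, as did 10.5% of the 13448 that were also tested. Of the 9 network members with an entry, MNT and MXD4 held it, as did MLX, the MAX-like partner of the MondoA branch. The windows below show these 3 sites and those of 4 activated MYC targets, picked after their values were seen to show genes of either direction: ODC1, SRM, SLC7A5 and UTP20. Capitals mark the E-box, lower case its flanks, each read 5′ to 3′ on the gene's strand, each at most 60 bases long and stopped at the first exonic base.
MNT (chr17:2401221-2401280, minus strand): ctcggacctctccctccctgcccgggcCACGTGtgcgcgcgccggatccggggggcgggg
MXD4 (chr4:2262315-2262359, minus strand): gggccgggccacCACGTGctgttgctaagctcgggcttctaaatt
MLX (chr17:42567023-42567067, plus strand): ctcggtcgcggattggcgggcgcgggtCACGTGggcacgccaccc
ODC1 (chr2:10448013-10448068, minus strand): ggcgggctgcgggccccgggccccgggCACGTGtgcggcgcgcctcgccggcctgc
SRM (chr1:11060185-11060244, minus strand): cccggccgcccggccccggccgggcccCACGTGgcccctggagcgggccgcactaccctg
SLC7A5 (chr16:87869605-87869664, minus strand): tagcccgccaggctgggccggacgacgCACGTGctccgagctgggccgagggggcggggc
UTP20 (chr12:101280068-101280104, plus strand): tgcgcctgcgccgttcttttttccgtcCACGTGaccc
The motif began 193 bases before the RefSeq start in MNT, 238 in MXD4, 50 in MLX, 29 in ODC1, 199 in SRM, 130 in SLC7A5 and 10 in UTP20. These starts can differ from the GENCODE gene positions given below, so the distances do not apply to those positions. A match is a description of the letters in this window and says nothing of binding.

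After MGO, 5 of the 10 members rose (MXD1, MYC, MAX, MXI1 and MXD3), 3 fell (MGA, MNT and MYCN) and 2 did not pass the test (MXD4 and MYCL). Calls are from edgeR's quasi-likelihood test at an adjusted p under 0.05 (Benjamini-Hochberg over all 23109 genes). Over all genes tested, 38.8% rose and 40.5% fell, so 8 calls among 10 members is close to the background of 79.3%. The members' median log2 fold change was 0.38, beside −0.02 over all genes tested. Under library size alone, which put the median of all genes at −0.55, 3 members rose (MYC, MAX and MXD1) and 5 fell (MYCN, MYCL, MXD4, MNT and MGA), and the members' median was −0.14. Of all calls, 30.6% were rises under that scaling, in place of 48.9%. MYC, MAX and MXD1 rose and MNT and MGA fell under every scaling run.

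**Figure D1:**
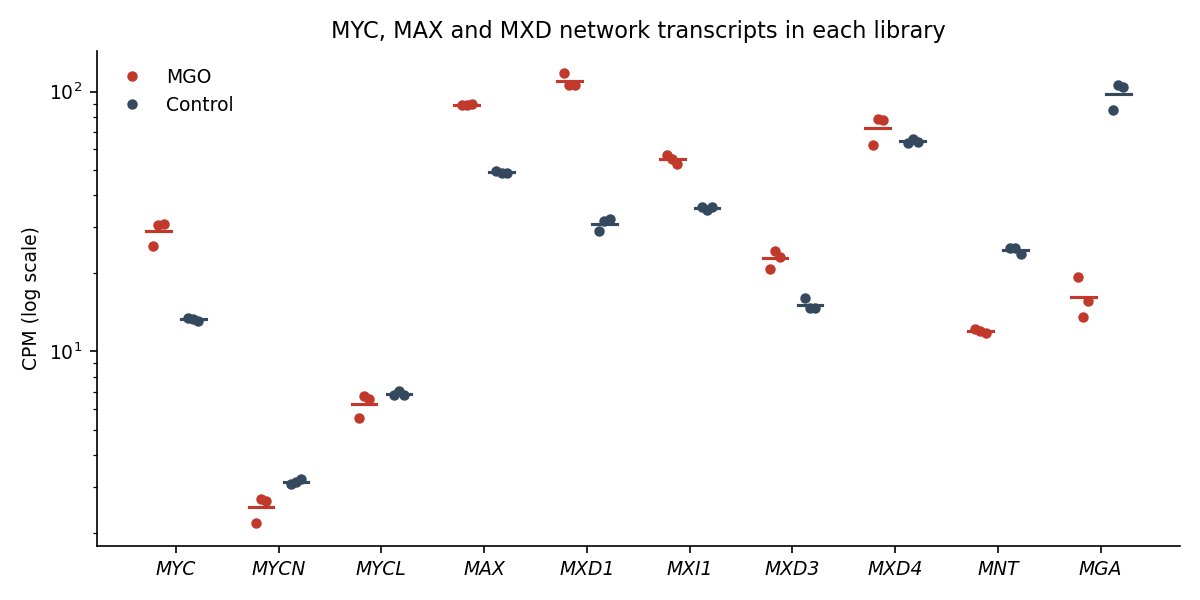
Level of each member in CPM (log scale) in the 3 MGO libraries (red, left) and the 3 Control libraries (dark, right); points are libraries and bars are group means. MXD1 lies between 106 and 118 CPM in MGO and between 29.2 and 32.3 CPM in Control, whereas MGA lies between 13.5 and 19.3 CPM in MGO and between 85.0 and 106 CPM in Control.

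MYC (chromosome 8, 127735434 to 127741434, plus strand), the member that most dividing cells use, had 2788, 3464 and 3560 counts in MGO, by replicate, and 1923, 2520 and 2273 in Control. Scaled by TMM these were 25.3, 30.7 and 31.1 CPM in MGO and 13.5, 13.3 and 13.1 CPM in Control. Every MGO library stood above every Control library, and MGO replicate 1 was the lowest of its group. The mean was 29.02 ± 3.19 CPM in MGO and 13.3 ± 0.202 CPM in Control (SD, n = 3 each), a 2.18-fold rise (log2 fold change 1.13, SE 0.08, adjusted p = 6.74e-08 by edgeR). The groups also did not overlap for 81.5% of all genes tested. MYC rose by 0.60 under library size alone and by 0.70 with the genome-wide trend over transcript length, genomic span and GC share taken out of each library (the length trend).

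MYCN fell slightly, and MYCL did not pass the test. MYCN (chromosome 2, 15940564 to 15947007), best known from neural tissue and neuroblastoma, was at 2.18, 2.699 and 2.64 CPM in MGO and 3.07, 3.15 and 3.24 CPM in Control. Its fall was small (log2 fold change −0.33, SE 0.11, adjusted p = 0.0147 by edgeR), and the groups did not overlap. MYCN shares 98 of its 2602 exonic bases with the antisense gene MYCNOS. The call was lost under upper quartile scaling (adjusted p = 0.217), against a 1.2-fold change (0.147) and without Control replicate 3 (0.0502). MYCL (chromosome 1, 39895426 to 39902256), first found in small cell lung cancer, was at 5.53, 6.74 and 6.54 CPM in MGO and 6.79, 7.02 and 6.80 CPM in Control. It did not pass the test (log2 fold change −0.13, 95% interval −0.33 to 0.06, edgeR adjusted p = 0.194), although its 3 MGO libraries lay below its 3 Control libraries. MYCL fell by 0.66 when scaled by library size only and by 0.60 once the length trend was removed, and under upper quartile scaling its value was 0.04. MYC made up 76.4 ± 0.369% of the length-scaled transcripts of its family in MGO and 56.6 ± 0.634% in Control.

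MAX (chromosome 14, 65006174 to 65102695), the shared partner of the others, was among the steadiest members within groups. It stood at 88.8, 88.6 and 89.3 CPM in MGO and at 49.7, 48.5 and 48.7 CPM in Control. The rise was 1.82-fold (log2 fold change 0.86, SE 0.06, adjusted p = 2.17e-08 by edgeR), at 0.34 when scaled by library size only and 0.69 once the length trend was removed.

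MXD1 (chromosome 2, 69897688 to 69942945), which encodes MAD1, a repressor induced when cells stop dividing and differentiate, had the largest rise of the 10. Its counts were 12951, 12003 and 12181 in MGO and 4155, 6005 and 5603 in Control, or 117.7, 106.2 and 106.3 CPM in MGO and 29.2, 31.8 and 32.3 CPM in Control. The lowest MGO library held over 3 times the level of the highest Control library. MXD1 rose 3.54-fold (log2 fold change 1.83, SE 0.07, adjusted p = 2.59e-10 by edgeR). Of its 6351 exonic bases, 237 are shared with SNRNP27, a gene on the same strand that rose less (log2 fold change 0.60), and how reads there were assigned is not given.

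MXI1 and MXD3 rose less than MXD1. MXI1 (chromosome 10, 110207605 to 110287365), also called MXD2, was at 56.9, 55.0 and 52.5 CPM in MGO and 35.9, 34.9 and 36.1 CPM in Control (log2 fold change 0.62, SE 0.06, adjusted p = 1.04e-06 by edgeR). Its call was lost under library size alone, at 0.10 (adjusted p = 0.197). MXD3 (chromosome 5, 177301461 to 177312757), expressed in mouse mostly in cycling cells, was at 20.8, 24.5 and 23.2 CPM in MGO and 16.1, 14.7 and 14.6 CPM in Control (log2 fold change 0.59, SE 0.08, adjusted p = 1.67e-05 by edgeR). This call was lost under library size alone (0.06, adjusted p = 0.448) and once the length trend was removed, where the value was −0.05 (adjusted p = 0.368). MXD3 shares 926 of its 5154 exonic bases with RAB24 on the same strand and 1158 with PRELID1 on the opposite strand, genes that rose by 0.64 and by 1.61, so its value is uncertain.

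MXD4 (chromosome 4, 2247432 to 2262294), a repressor of the same family, was at 62.2, 78.1 and 77.9 CPM in MGO and 63.6, 65.4 and 63.9 CPM in Control. MGO replicate 1 lay below all Control libraries and the other MGO libraries above them. It did not pass the test (log2 fold change 0.18, 95% interval −0.01 to 0.36, edgeR adjusted p = 0.0692). Without MGO replicate 1 it rose by 0.28 (adjusted p = 7.45e-05). MXD4 also rose under upper quartile scaling (0.35) and once the length trend was removed (0.40), and fell under library size alone (−0.35, adjusted p = 0.00149), so its direction depends on the scaling.

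MNT and MGA, the larger MAX-binding antagonists, both fell. MNT (chromosome 17, 2384060 to 2401118), a widely expressed repressor that buffers MYC activity, was at 12.2, 11.96 and 11.8 CPM in MGO and 25.01, 25.1 and 23.8 CPM in Control. The fall was to 0.487 of the Control level (log2 fold change −1.04, SE 0.07, adjusted p = 1.36e-08 by edgeR). Removing the length trend left it at −1.17. MNT shares 1065 of its 8728 exonic bases with an antisense gene, and whether reads were counted by strand is not stated. MGA (chromosome 15, 41621224 to 41773081), a dual T-box and MAX-binding scaffold of the non-canonical Polycomb complex PRC1.6, had 2120, 1528 and 1794 counts in MGO and 12117, 20009 and 18079 in Control. These were 19.3, 13.5 and 15.7 CPM in MGO and 85.0, 105.8 and 104.1 CPM in Control. MGA had the largest fall of the 10, to 0.164 of the Control level (log2 fold change −2.61, SE 0.12, adjusted p = 1.28e-09 by edgeR), and its value with the length trend removed was −0.70 (adjusted p = 2.59e-07).

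**Figure D2:**
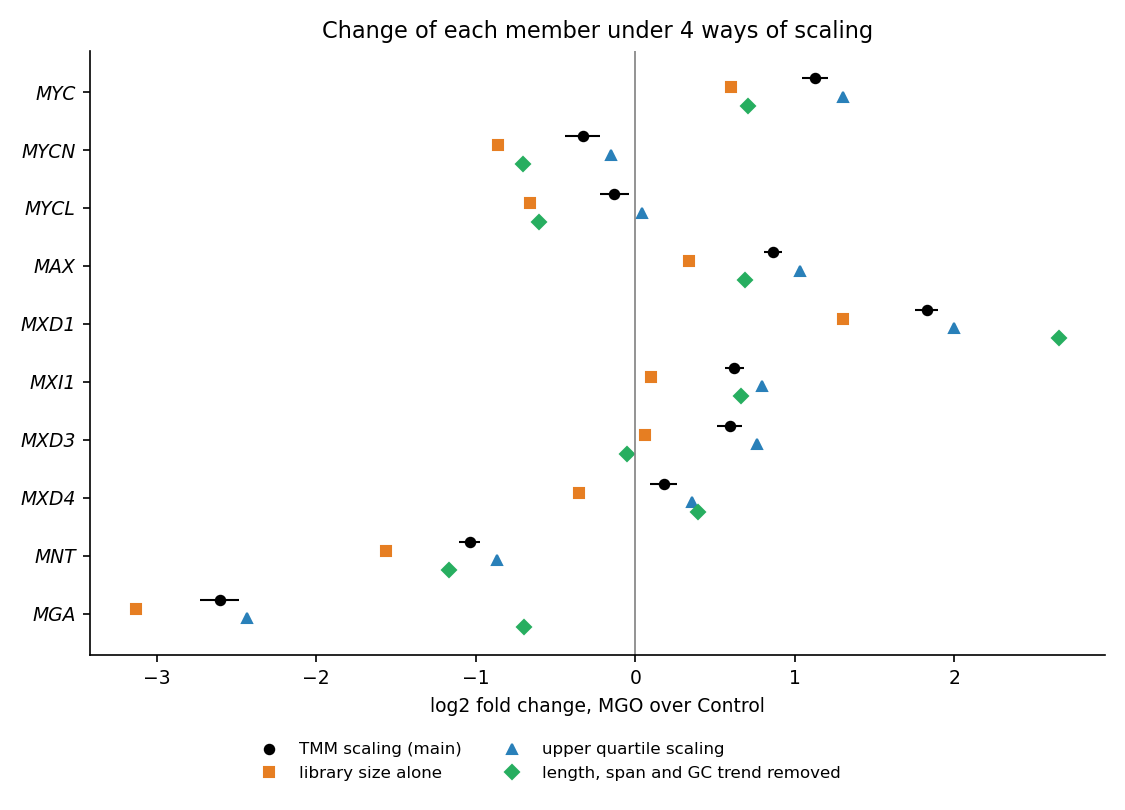
Log2 fold change of each member, MGO over Control, under TMM scaling (black, with SE), library size alone (orange), upper quartile scaling (blue) and removal of the length trend (green). MYC, MAX and MXD1 stay above 0 and MYCN, MNT and MGA below it in all 4, while MYCL, MXD3 and MXD4 cross it.

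Fold changes in these libraries moved with transcript length, and the members span a wide range of it, from 765 nt in MAX to 11859 nt in MGA (median over basic GENCODE 29 transcripts). Genes were placed in 20 bins of length. The 1086 genes in the bin of MGA, 6514 nt and longer, had a median log2 fold change of −1.78 and quartiles of −2.46 and −0.96. MGA at −2.61 lay below that lower quartile. MXD1, with 5583.5 nt, went against its bin: the 1088 genes of 5075 to 6512 nt had a median of −1.19 and an upper quartile of −0.47, and MXD1 stood 3.02 above the median. With the trend removed its log2 fold change was 2.65 (SE 0.04, adjusted p = 3.57e-13 by edgeR). MNT lay 0.92 below its bin's median of −0.12, and MYC, with 2042 nt, lay 0.94 above its bin's median of 0.18. MXD3 differed from its bin by 0.03.

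**Figure D3:**
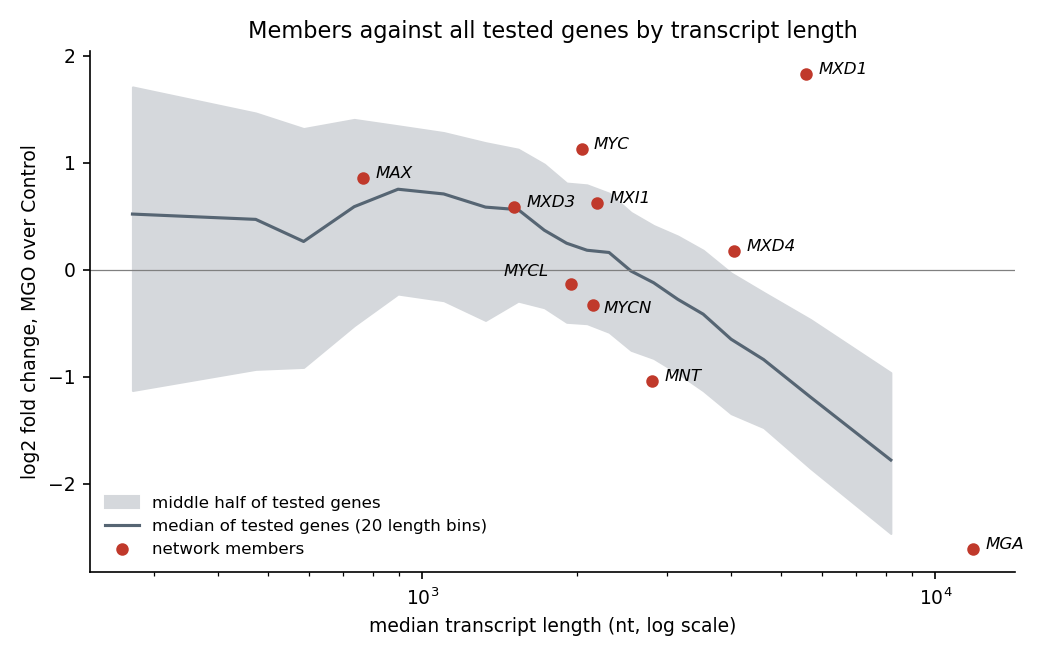
Log2 fold change, MGO over Control, against median transcript length (nt, log scale); the line is the median of all tested genes in 20 length bins, the band runs between their quartiles, and red points are the members. MXD1, MYC, MXD4 and MNT lie outside the band of their bin, as does MGA at the long end, and MXD3 lies on the line.

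Per kilobase of transcript, the order of the members differed between groups. In MGO the order was MAX (116.3 ± 0.468 CPM per kb), MXI1 (25.1 ± 1.01), MXD1 (19.7 ± 1.19), MXD4 (17.9 ± 2.25), MXD3 (15.1 ± 1.22), MYC (14.2 ± 1.56), MNT (4.28 ± 0.0623), MYCL (3.22 ± 0.334), MGA (1.36 ± 0.245) and MYCN (1.17 ± 0.132). The libraries of MXD1 and MXD4, of MXD4 and MXD3, of MXD3 and MYC, and of MGA and MYCN overlapped, so those neighbours are not ordered beyond their spread. In Control it was MAX (64.0 ± 0.858), MXI1 (16.3 ± 0.295), MXD4 (15.9 ± 0.249), MXD3 (10.0 ± 0.551), MNT (8.79 ± 0.264), MGA (8.29 ± 0.973), MYC (6.51 ± 0.0992), MXD1 (5.56 ± 0.299), MYCL (3.53 ± 0.0676) and MYCN (1.47 ± 0.038). There MXI1 and MXD4 overlapped, as did MNT and MGA. MXD1 stood near the bottom of this order in Control and behind MAX and MXI1, not separable from MXD4, in MGO. The level of MAX depends on its length. With each member divided by its longest transcript (3155 nt for MAX), MAX was at 28.2 CPM per kb in MGO and 15.5 in Control. On that scale MAX was still above every other member in MGO but just below MXD4 in Control.

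Ratios within a library do not depend on scaling between libraries. The log2 ratio of MYC to MAX, per kb, was −3.23, −2.95 and −2.94 in MGO and −3.30, −3.28 and −3.31 in Control, a difference of 0.26 that became 0.01 with the length trend removed. That of MXD1 to MAX was −2.46, −2.61 and −2.62 in MGO and −3.64, −3.48 and −3.46 in Control, a difference of 0.96. That of MNT to MAX was −4.74, −4.76 and −4.79 in MGO and −2.86, −2.82 and −2.91 in Control, a difference of −1.90. For all 9 partners the groups did not overlap in this ratio. In CPM the groups did not overlap for 81.5% of all genes, and the like share for ratios to MAX was not computed. Each exact two-sided permutation test gave p = 0.1, the smallest that 3 against 3 libraries allow, so none can pass 0.05. The difference was positive for MXD1 and MYC and negative for the other 7 partners, between −0.24 for MXI1 and −3.48 for MGA. MAX itself rose by 0.86, so any gene that rose less has a negative difference, among them MXI1 (0.62) and MXD3 (0.59). The median log2 fold change over all genes tested was −0.02, and the share of all genes with a negative difference was not computed. With the length trend removed, the difference for MXD1 was 1.97, that for MGA −1.39, that for MXI1 −0.02, that for MXD3 −0.74 and that for MXD4 −0.30, and the groups overlapped for MYC and MXI1. The value of MAX with the trend removed, and so each of these ratios, rests on its median length of 765 nt. Removal of the trend with its longest transcript of 3155 nt was not tried. There were 3.42 to 4.65 counts of MXD1 per count of MYC in MGO, against 2.16 to 2.47 in Control.

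Among the 9 partners of MAX, summed per kb to 102.1 ± 3.25 in MGO and 76.3 ± 0.690 in Control, MXD1 took 19.4 ± 1.79% in MGO and 7.28 ± 0.340% in Control. MYC took 13.9 ± 1.15% in MGO and 8.53 ± 0.182% in Control. MNT took 4.19 ± 0.186% in MGO and 11.5 ± 0.365% in Control, and MGA took 1.34 ± 0.285% in MGO and 10.9 ± 1.19% in Control. MXI1 held the largest share in MGO, with 24.6 ± 1.63% in MGO and 21.3 ± 0.543% in Control, where it overlapped MXD4 at 20.8 ± 0.175%. The 3 MYC family genes together took 16.5, 18.8 and 19.2% in MGO and 15.3, 15.1 and 14.9% in Control. That order turned round with the length trend removed, to 14.01, 15.6 and 15.9% in MGO and 17.6, 18.4 and 18.1% in Control, so the direction of the family's share depends on this setting. The shares of single partners were not computed with the trend removed. Removing it took the log2 fold change of MGA from −2.61 to −0.70 and that of MYC from 1.13 to 0.70, so their shares carry the same limit.

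**Figure D4:**
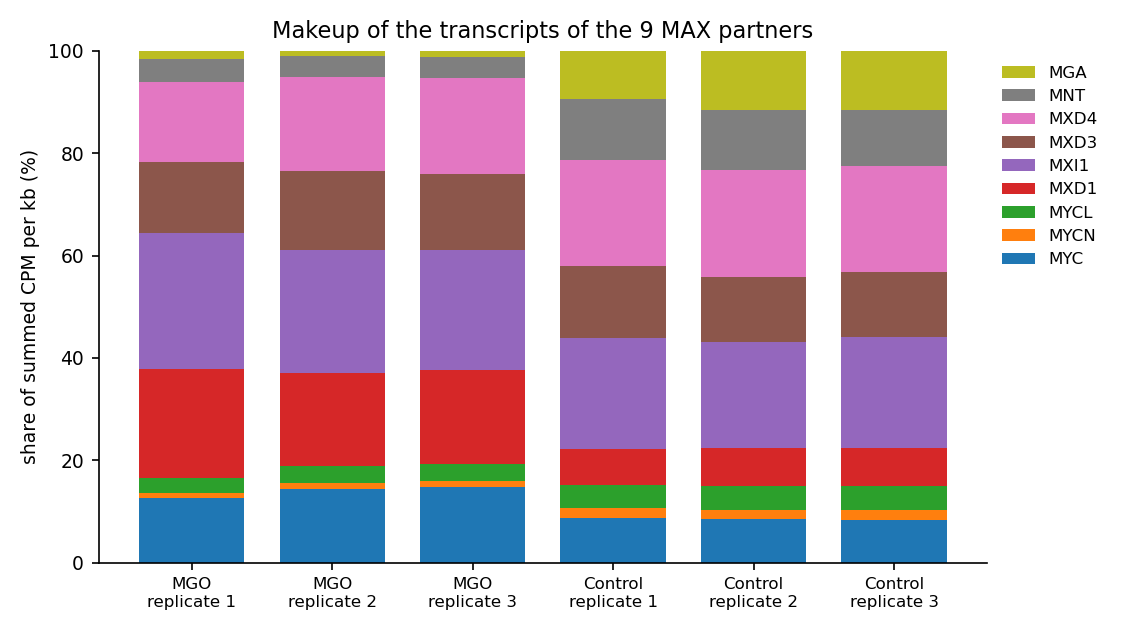
Share (%) of each of the 9 MAX partners in their summed CPM per kb, in the 3 MGO libraries (left) and the 3 Control libraries (right). MXD1 takes 18.2 to 21.4% in MGO and 6.90 to 7.56% in Control, and MNT and MGA together form a thinner band in MGO. The length trend was not removed from these shares.

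Around MYC itself, the long noncoding RNA gene PVT1, its neighbour on chromosome 8 whose transcript has been linked to MYC protein stability, also rose. PVT1 was at 31.7 ± 2.33 CPM in MGO and 6.44 ± 0.268 CPM in Control (log2 fold change 2.30, SE 0.08, adjusted p = 1.19e-10 by edgeR). CASC11, CCAT2, MYCNUT and MYCLP1 had too few counts to be tested, with at most 5 in any library, and CCAT1 was not analysed here. MYCNOS, antisense to MYCN, had 26, 32 and 41 counts in MGO and 29, 42 and 39 in Control and did not pass the test (edgeR adjusted p = 0.11), but did without MGO replicate 1 (0.0485). MYCBP, a MYC-binding protein, rose by 0.55, a call lost once the length trend was removed (0.04) and under library size alone (0.02), whereas MYCBP2, a very large ubiquitin ligase first isolated as a MYC partner, changed by −2.92. The transcript of MYCBP2 has 14664 nt, and its value with the length trend removed was −0.91. The 5 genes whose profile over the 6 libraries was closest to that of MYC were SH2D3A, OTUB1, B3GAT3, TMEM9 and SHARPIN, at root mean square distances of 0.020 to 0.024 on the centred log2 CPM scale, out of 13382 genes compared. Their log2 fold changes were 1.125 to 1.154, beside 1.126 for MYC. A small distance here needs a like fold change, and shared regulation with MYC was not tested.

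In the parallel branch, MLX pairs with MondoA (MLXIP) and ChREBP (MLXIPL), sensors of glucose metabolites. MLX rose, at 117.5 ± 6.28 CPM in MGO and 72.0 ± 1.51 CPM in Control (log2 fold change 0.71, SE 0.06, and 0.44 once the length trend was removed). MLXIP fell to 6.36 ± 1.22 CPM in MGO, against 32.6 ± 1.11 CPM in Control (log2 fold change −2.36, SE 0.11, adjusted p = 1.46e-09 by edgeR), with −1.5 once the length trend was removed. MLXIPL fell by 0.65 on the log2 scale.

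Among 20 genes that set MYC turnover and activity, 11 rose and 7 fell (median 0.37), beside 38.8% and 40.5% of all genes tested. PIM1, a kinase that phosphorylates and stabilises MYC, rose most, to 132.5 ± 6.35 CPM in MGO, against 24.2 ± 1.02 CPM in Control (log2 fold change 2.45, SE 0.07). HUWE1, a giant ubiquitin ligase that acts on MYC, changed by −2.70 and the deubiquitinase gene USP13 by −1.86, with −0.68 and −0.71 once the length trend was removed. Among 20 genes of MYC transcription and coactivation, 10 rose and 7 fell (median 0.11), again beside 38.8% and 40.5% of all genes. TRRAP and EP400, large subunits of the TIP60 histone acetylation complex, changed by −3.24 and −3.39, and by −1.25 and −1.47 with the length trend removed. NME2, which was first described as a factor at the MYC promoter, rose by 1.42 and the splicing factor gene PUF60, also a repressor of MYC transcription, by 1.23, with 0.73 and 0.74 once the length trend was removed. NME2 was at 14.8 ± 1.39 CPM in MGO and 5.54 ± 0.112 CPM in Control. Its sequence is close to that of its neighbour NME1, so its value is uncertain.

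Of 15 corepressors that MXD proteins and MNT recruit, 7 rose and 7 fell, a split close to the 38.8% and 40.5% of all genes tested. Their median was 0.11, with −0.41 under library size alone and −0.07 without MGO replicate 1. SAP30 and SAP18, small subunits of the SIN3 complex, rose by 1.6 and 1.55, with 0.88 and 1.21 once the length trend was removed. NCOR1, a scaffold of a nuclear receptor corepressor complex, fell by 2.54, with −0.82 once the length trend was removed. Of 10 tested partners of MGA in PRC1.6, 6 rose and 3 fell, where 38.8% and 40.5% of all genes did. PCGF6, the Polycomb ring-finger subunit that defines the complex, rose by 1.53 (SE 0.07) to 101.5 ± 6.72 CPM in MGO, against 35.3 ± 1.17 CPM in Control, and the ubiquitin ligase gene RNF2 rose by 1.0. TFDP2 and TFDP1, dimer partners of E2F factors, fell by 0.78 and by 0.70. RING1 was listed at 0 in all 6 libraries, and this is not read as absent expression.

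Of 75 tested genes of a list, written from general knowledge, of MYC-activated targets, 52 rose and 16 fell, beside 38.8% and 40.5% of all genes tested, and their median log2 fold change was 0.61. With the length trend removed, 52 rose and 14 fell (median 0.55), and under library size alone the median was 0.09, beside −0.55 for all genes. BYSL and NOP16, factors of ribosome assembly, rose most, with BYSL at 257.9 ± 12.7 CPM in MGO and 46.6 ± 1.08 CPM in Control (log2 fold change 2.47, SE 0.07) and NOP16 at 2.40 (SE 0.07). UTP20, a very large protein of small ribosomal subunit assembly, changed by −3.04 (SE 0.11) and FASN, fatty acid synthase, by −2.12 (SE 0.09), with −1.39 and −1.01 once the length trend was removed. Of the polyamine genes, ODC1, ornithine decarboxylase, was at 641.6 ± 19.2 CPM in MGO and 308.8 ± 8.13 CPM in Control (log2 fold change 1.06) and SRM, spermidine synthase, rose by 1.29, with 0.57 for SRM once the length trend was removed. APEX1, E2F2, IPO4, LDHA and SURF2 did not pass the filter on low counts. IPO4 and SURF2 were listed at 0 in every library, APEX1 at no more than 1 count and LDHA at no more than 5. As for RING1, these values are not read as absent expression. The part of read assignment in the counting step was not tested.

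The E-box stood before the start of 23 of the 63 activated targets with a promoter entry (36.5%), beside 7.73% of all 27305 genes with one. The list was written as known MYC targets, and the part of that choice in this share was not tested. Of the 20 tested with the motif, 13 rose and 4 fell (median 0.50), and of the 39 tested without it, 32 rose and 5 fell (median 0.94). Over all genes tested, 38.8% rose and 40.5% fell. Among all tested genes with a promoter entry, the median was −0.0198 with the motif and −0.005 without it. Whether the motif bears on these values was not tested. ODC1 and SRM, whose windows are printed above, rose, while SLC7A5, an amino acid transporter, changed by −1.22 (−0.78 once the length trend was removed) and UTP20 by −3.04. These genes were picked after their values were seen, to show either direction, so they are examples only.

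Of 15 genes commonly given as repressed by MYC, 8 rose and 6 fell, beside 38.8% and 40.5% of all genes tested. Their median was 0.20, and −0.32 when scaled by library size only. GADD45A, a growth arrest gene, rose by 2.67 (SE 0.06), to 289.4 ± 9.88 CPM in MGO, against 45.6 ± 0.681 CPM in Control. CDKN1B, the p27 cyclin-dependent kinase inhibitor, rose by 2.30 (SE 0.06), to 477.6 ± 13.1 CPM in MGO, against 97.3 ± 1.39 CPM in Control. The integrin genes ITGAV and ITGB1 changed by −2.41 and −1.44, and by −1.02 and −0.79 once the length trend was removed.

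**Figure D5:**
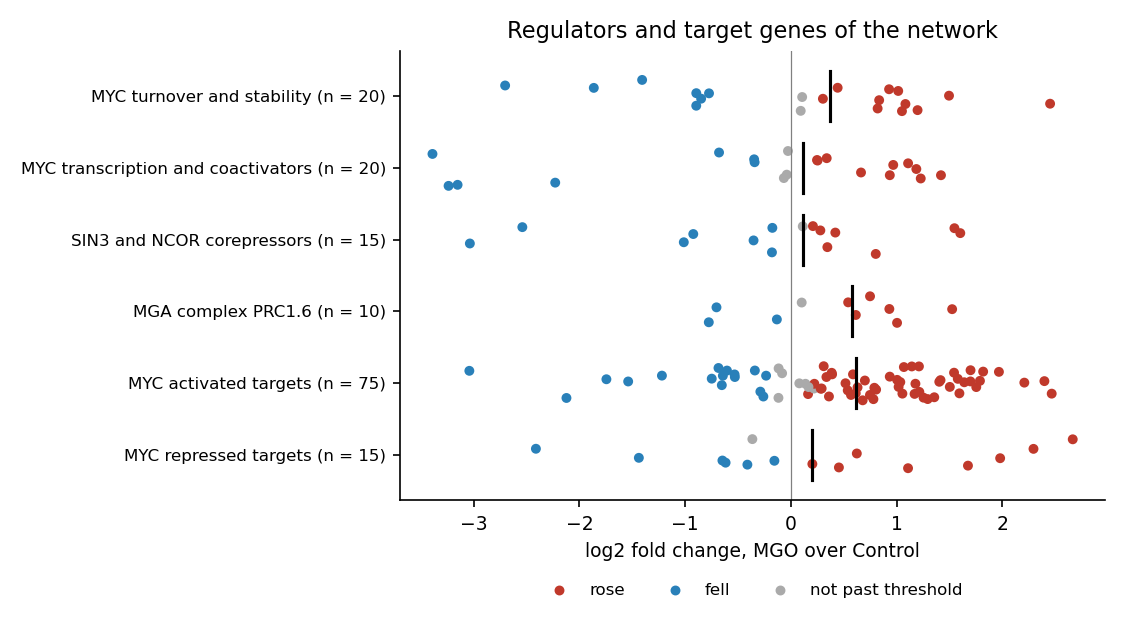
Log2 fold change, MGO over Control, of each tested gene in 6 lists of network regulators and targets; red points rose, blue points fell and grey points did not pass the test, and black bars are list medians. The median of the 75 activated targets is 0.61, and each list holds genes that moved in both directions.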

How the data were processed

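Poly(A) RNA of 3 MGO and 3 Control libraries was sequenced. Values were deposited by the authors as raw gene counts. The submitters' processing notes name Trim Galore 0.6.10, STAR 2.7.0a, featureCounts 2.0.6, SAMtools 1.19.2, FastQC 0.12.0, DESeq2 1.42.0 and build hg38. The library kit is stranded per the labels' protocols; the annotation, strand setting and multi-mapping rule of the counting step are not given.

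The tests ran in edgeR 4.0.16 under R 4.3.3 (filterByExpr, TMM scaling, quasi-likelihood test, Benjamini-Hochberg adjustment over 23109 genes, threshold 0.05). Each SE was taken as the size of the log2 fold change over root F. CPM values are counts per TMM-scaled library size. Limma 3.58.1 (voom), DESeq2 and mgcv 1.9.3 (length trend, fitted per library and used as offsets) served alternatives. Others were 3 scalings (upper quartile, RLE, library size alone), a 1 CPM filter or none, a 1.2-fold test, robust dispersions, the replicate block and leaving out each library. Levels per kb used the median length of basic transcripts. Steps were tested on simulated data. Unlike these libraries, the simulated ones had few changed genes, balanced in direction, and no length trend. That test therefore does not check the scaling between libraries or the removal of the trend. GENCODE 29 (GRCh38, the same assembly as hg38) gave positions and lengths for 56758 of 63643 genes.

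No pair of libraries in a group matched within counting error (lowest chi-square per degree of freedom 3.51), so each counted as 1 replicate. The labels do not say whether they are separate cultures, and p-values cover only the spread among these samples, possibly technical. Members and lists were chosen with earlier results of these data known. Named genes are the members, the MLX branch, the MYC locus RNAs, and from each other list the 2 strongest rises and the 2 strongest falls among called genes with a mean of at least 1 CPM; others were named after their values were seen, and some that the rule names are not reported here.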

Additional observations from a re-analysis of the deposited data

How the results depend on the processing

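Of 567 values of the main results under alternatives (38 results), 540 kept their direction and side of the threshold, or a count within 1.5 times. The ratios to MAX and the family share had an exact permutation p of at least 0.1 under every setting. For them only a change of direction could be seen, so their part of the 540 says nothing about the threshold. Library size alone gave 3 members raised and 5 lowered, MYCL at −0.66, MXD3 at 0.0626, MXI1 at 0.10 and MXD4 at −0.35. It also gave 6 raised and 13 lowered coactivator genes, 3 raised corepressors, 3 raised PRC1.6 genes, 32 lowered activated targets, 5 raised repressed targets and 1 raised gene at the MYC locus. Only counts that moved by more than 1.5 times are listed. Over all 23109 genes tested, 5673 rose and 12885 fell under library size alone, with a median of −0.55. Medians turned negative there for members (−0.14), turnover (−0.15), coactivator (−0.42), corepressor (−0.41), repressed target (−0.32) and locus (−0.0362) lists, and MYCNOS was at −0.10. Upper quartile scaling gave MYCN at −0.16, MYCL at 0.0425, MXD4 at 0.35 and 4 lowered corepressors. Against a 1.2-fold change, MYCN (−0.33) was not called and 4 corepressors rose and 4 fell. Removing the length trend gave MYCL at −0.60, MXD3 at −0.0525, MXD4 at 0.40, MYCNOS at −0.19, 1 raised locus gene, a locus median of −0.078 and a MYC family share of partners of −2.86 percentage points, in place of 3.11. The cause of these shifts was not tested. Leaving out single libraries gave MYCN from −0.38 to −0.23, MXD4 from 0.13 to 0.28, and a corepressor median from −0.0663 (without MGO replicate 1) to 0.2031. With the replicate number as a block, 5 members rose and 3 fell, with MYC at 1.12 and MYCN at −0.33. Same-numbered libraries deviated with correlations of 0.06, −0.041 and 0.092, so the numbers were not taken as a pairing. Genes with few counts, such as MYCNOS, are limited by depth.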
